A study of Mus musculus with 12 samples.

Results

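The 6 genes of the platelet-derived growth factor (PDGF) system in the mouse, the receptors Pdgfra and Pdgfrb and the ligands Pdgfa, Pdgfb, Pdgfc and Pdgfd, were followed in 10T1/2 cells on collagen with and without aortic carboxypeptidase-like protein (ACLP). They were chosen by symbol from the 56748 genes of the count table, with earlier results of these data known. All 6 were among the 16465 genes tested. 10T1/2 cells (C3H10T1/2, spelled CH310T1/2 in the sample labels) are an established wild-type mouse mesenchymal line, so every library came from 1 line. All cells were serum starved in 0.5% FBS, held in suspension for 1 h and cultured for 18 h on plates of 12 kPa stiffness whose coating was made with 0.05 mg/ml of type I collagen. The 3 groups had 4 libraries each. In col1 the coating held collagen alone, in col1-ACLP the collagen was polymerized with 30 nM recombinant ACLP, and in col1-ACLP+SB the same matrix was combined with 5 µM SB431542, an inhibitor of the TGFβ receptor kinase ALK5 (TGFβR1). No group received SB431542 on collagen alone, so an effect of the inhibitor without ACLP cannot be told apart from its effect with it.

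PDGFs are dimeric growth factors that drive division, migration and survival of mesenchymal cells through a pair of receptor tyrosine kinases. PDGFRα binds the A, B and C chains, and PDGFRβ binds the B and D chains. PDGF-A and PDGF-B are cut inside the cell by furin-like proteases, whereas PDGF-C and PDGF-D are secreted in a latent form and activated outside the cell by proteases such as tissue plasminogen activator and urokinase. PDGFRα marks many stromal and adipose progenitors, and PDGFRβ is abundant in fibroblasts, pericytes and smooth muscle cells.

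Libraries held between 29246154 and 52201922 counts. Between replicates of a group, counts differed by more than sampling noise (a chi-square of 7.14 to 18.3 per degree of freedom), so all 12 libraries were kept as separate samples. One library stood apart. On the leading principal component, which held 19.5% of the variance, col1 replicate 2 had a score of -86.74, far from the range of -11.10 to -8.97 of the remaining col1 replicates. Values of the 6 genes against col1, and counts of the genes around them, are therefore also given without it. Levels are given as CPM, the count of a gene scaled to the size of the library with TMM factors. All 8 mesenchymal markers were above 1 CPM on average in each group, summing to between 24570 and 42780 CPM over the libraries. The 5 endothelial markers summed to between 5.058 and 8.353 CPM on col1, between 7.519 and 9.851 CPM with ACLP and between 4.498 and 6.379 CPM with ACLP and SB431542. Nearly all of this was Tek, an angiopoietin receptor, with Pecam1 at a mean of 0.125 CPM on col1. The 4 haematopoietic markers, nearly all of it Cd68 and Cd14, summed to between 18.43 and 22 CPM on col1, between 13.44 and 16.03 CPM with ACLP and between 14.92 and 19.77 CPM with ACLP and SB431542. Of these, Cd68 passed as lower on col1-ACLP than on col1 (log2 fold change -0.49, adjusted p = 0.0284, edgeR), though not with col1 replicate 2 left out (adjusted p = 0.052), and Cd14 did not pass (adjusted p = 0.103). Ptprc, the defining marker of the lineage, was at 0.0847 CPM on col1 and had no count with ACLP. The part of these markers in the values below was not tested. In all groups, the 4 epithelial markers summed to between 1.882 and 4.042 CPM. Epcam and Adgre1 had no count in any library.

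Both receptors were abundant on col1. On col1-ACLP, Pdgfra fell by 40.8% and Pdgfrb fell by 9.58%. Among ligands, Pdgfb was 1.83-fold and Pdgfc 2.11-fold higher on col1-ACLP, whereas the means of Pdgfa and Pdgfd were lower but did not pass the test. A gene passed when its adjusted p-value from edgeR's quasi-likelihood test was under 0.05, and it was called when its log2 fold change was also beyond 0.58 in size. By this rule 3 of the 6 genes were called, 2 higher and 1 lower, against 4.97% of all tested genes (2.61% higher and 2.36% lower). Since the 6 genes were chosen with earlier results known, such shares are a description and not a test. With the adjusted p-value alone, 4 of the 6 passed against 17.9% of all tested genes, and for 4 of the 6 every library of one group lay beyond every library of the other, against 21.2% of all tested genes. The median log2 fold change of all tested genes was -0.0099. Leaving out col1 replicate 2 also gave 3 calls, but Pdgfrb no longer passed, and leaving out col1-ACLP replicate 4 gave 2 calls, without Pdgfc.

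**Figure D1:**
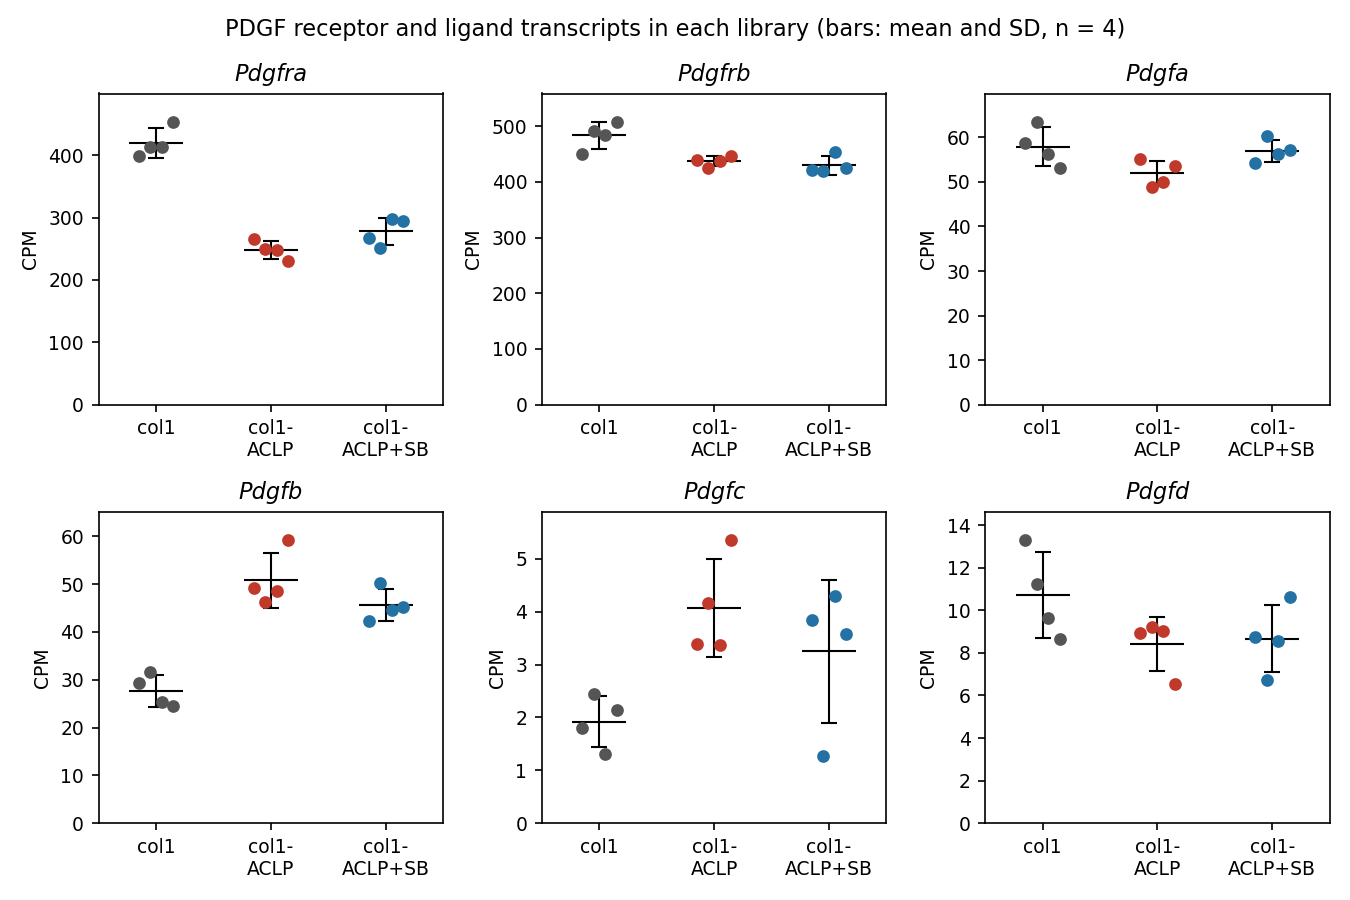
Level of each PDGF receptor and ligand gene in CPM (vertical axes, starting at 0) in the 12 libraries (points) of col1, col1-ACLP and col1-ACLP+SB, with the mean and SD of each group (bars, n = 4). Every col1-ACLP library lay below every col1 library for Pdgfra and above every col1 library for Pdgfb and Pdgfc.

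Pdgfra (ENSMUSG00000029231, chromosome 5 from 75312953 to 75358876, plus strand, GRCm39) encodes the α receptor. Its levels were 398.2, 412.7, 414.1 and 453.8 CPM in the col1 libraries, 266, 249.1, 248.3 and 230.3 CPM on col1-ACLP, and 267.3, 251.4, 297.4 and 295.2 CPM on col1-ACLP+SB. The lowest col1 library was well above the highest library with ACLP, while the groups with and without SB431542 overlapped. Means were 419.7 ± 23.9 CPM (SD, n = 4) without ACLP and 248.4 ± 14.6 CPM with it, which is -0.76 on the log2 scale (standard error 0.0572, 95% interval -0.875 to -0.638, adjusted p = 1.98e-10, edgeR). With SB431542 the mean was 277.8 ± 22.3 CPM, and the log2 fold change against col1 was -0.60 (standard error 0.057, adjusted p = 3.32e-08, edgeR). With col1 replicate 2 left out, the log2 fold changes were again -0.76 and -0.60. The latter value was close to the limit of 0.58 and fell inside it at -0.55 without col1 replicate 4, at -0.576 without col1-ACLP+SB replicate 1 and at -0.55 without col1-ACLP+SB replicate 2, with adjusted p-values of at most 5.15e-07 in the edgeR fits without 1 library. In RNA from whole cultures, fewer cells that express a gene and less of its RNA per cell cannot be told apart.

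The neighbours of Pdgfra on chromosome 5 are Kit and Kdr, which encode related receptor tyrosine kinases. Each had 1 count in all 12 libraries together. Genes that overlap Pdgfra (Gm42802, Gm42803 and Mir7025) held at most 39 counts over all libraries, and their part in its values was not tested. The bases just upstream of Pdgfra are shown because it was the member with the largest fall. They lie at chr5:75312662-75312833 of GRCm39 (plus strand) and end where the first exon of the GENCODE annotation used here begins, 78 bases before the RefSeq start. The start of the gene given above is that of the count table and lies further downstream. Capitals mark the one match found, GTCTG, the complement of the SMAD-binding letters CAGAC.
Pdgfra upstream: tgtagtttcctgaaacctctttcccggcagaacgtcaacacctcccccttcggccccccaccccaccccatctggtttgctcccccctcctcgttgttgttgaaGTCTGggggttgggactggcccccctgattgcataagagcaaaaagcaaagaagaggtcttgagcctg

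Pdgfrb (ENSMUSG00000024620, chromosome 18 from 61178222 to 61218133, plus strand) encodes the β receptor. Levels were 449.1, 490.9, 484.7 and 507.7 CPM in the col1 libraries and 439.3, 424.6, 437.7 and 445.8 CPM in those with ACLP. With SB431542 the values were 420.8, 418.5, 454.3 and 423.9 CPM. All col1-ACLP libraries lay below all col1 libraries, but by a narrow margin between 445.8 and 449.1 CPM, and 1 library with SB431542 lay inside the col1 range. The log2 fold change was -0.15 on col1-ACLP (standard error 0.0448, adjusted p = 0.024, edgeR) and -0.17 on col1-ACLP+SB (standard error 0.0448, adjusted p = 0.0144, edgeR), so Pdgfrb passed the test in both but stayed inside 0.58. The first of these did not pass once any of 6 libraries was left out (col1 replicate 2, 3 or 4, or col1-ACLP replicate 1, 2 or 3), and with col1 replicate 2 left out it was -0.14 (adjusted p = 0.0605, edgeR). The second did not pass without col1 replicate 4 (adjusted p = 0.0721) or without col1-ACLP+SB replicate 1 (adjusted p = 0.0501, edgeR), and passed at -0.16 with col1 replicate 2 left out (adjusted p = 0.0401).

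Pdgfrb is also widely used as a mural cell gene. Of the 7 mural markers 5 were tested, and 1 of these, Cspg4, passed as higher on col1-ACLP than on col1, a share near the 17.9% of all tested genes. The summed level of the 7 mural markers ran from 302.9 to 319.8 CPM on col1, from 466.4 to 614.1 CPM on col1-ACLP and from 412.4 to 479 CPM on col1-ACLP+SB. Nearly all of this sum and of its difference was Cspg4, the NG2 proteoglycan, at 296.8 ± 7.17, 509.6 ± 60.8 and 425.6 ± 33.5 CPM. The mural markers Kcnj8 and Abcc9 were at 0 in all libraries and Rgs5 was at a mean of at most 0.362 CPM, with a log2 fold change of -1.61 that did not pass (adjusted p = 0.165, edgeR). Notch3, Mcam and Des did not pass either (adjusted p = 0.366, 0.308 and 0.974). Of the 8 mesenchymal markers 6 passed, against 17.9% of all tested genes. Col1a1 and Col1a2 passed as higher and Prrx1, Twist1, Lum and S100a4 as lower on col1-ACLP than on col1, while Vim and Thy1 did not pass. All 6 passed in the same direction with col1 replicate 2 left out, as did Cspg4. Lum, a collagen-binding proteoglycan, showed a log2 fold change of -1.76 (adjusted p = 7.78e-10, edgeR). The summed mesenchymal level ran from 24570 to 25480 CPM on col1, from 34540 to 42780 CPM with ACLP and from 31450 to 37000 CPM with ACLP and SB431542. Most of it was Col1a1, at 11900 ± 161 CPM on col1 and 20960 ± 2480 CPM with ACLP, and Col1a2, at 7307 ± 124 and 11490 ± 902 CPM. The part of these markers in the receptor values was not tested.

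Pdgfb (ENSMUSG00000000489, chromosome 15 from 79880075 to 79899178, minus strand) encodes the B chain, the ligand of both receptors. The col1 libraries had 29.39, 31.56, 25.34 and 24.48 CPM and the col1-ACLP libraries 49.21, 46.25, 48.63 and 59.18 CPM. With SB431542 the values were 42.24, 50.21, 44.58 and 45.18 CPM. All 8 libraries with ACLP were above all 4 without it. The log2 fold change was 0.87 on col1-ACLP (standard error 0.0896, 95% interval 0.69 to 1.06, adjusted p = 4.59e-08, edgeR) and 0.72 on col1-ACLP+SB (standard error 0.0895, adjusted p = 2.28e-06, edgeR). Without col1 replicate 2 these values were 0.945 and 0.786. Mir7213 and Gm41361, which overlap Pdgfb, held at most 22 counts over all libraries.

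Pdgfc (ENSMUSG00000028019, chromosome 3 from 80943723 to 81121347, plus strand) encodes the latent C chain and was the least abundant member, with between 38 and 223 counts per library. The col1 libraries had 1.801, 2.436, 1.305 and 2.139 CPM, and those of col1-ACLP 3.391, 4.174, 3.374 and 5.351 CPM. On col1-ACLP+SB the values were 3.845, 1.275, 4.302 and 3.572 CPM. The col1-ACLP libraries all lay above the col1 libraries, whereas col1-ACLP+SB replicate 2 was the lowest of all 12 and the remaining libraries with SB431542 were above col1. The log2 fold change was 1.08 on col1-ACLP (standard error 0.302, 95% interval 0.455 to 1.70, adjusted p = 0.0125, edgeR). Without col1-ACLP replicate 4 it was 0.92 and did not pass (adjusted p = 0.0565, edgeR), and without col1 replicate 2 it was 1.21 (adjusted p = 0.01). On col1-ACLP+SB the value was 0.76 (standard error 0.301, 95% interval 0.14 to 1.38) and did not pass (adjusted p = 0.133, edgeR), nor did it at 0.90 with col1 replicate 2 left out (adjusted p = 0.0959). Without col1-ACLP+SB replicate 2 it was 1.02 and passed (adjusted p = 0.0102, edgeR).

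The upstream bases of Pdgfc are shown because its promoter window held a CArG box, the letters bound by serum response factor. The first piece is chr3:80943473-80943667 of GRCm39 and ends where the first exon of the same GENCODE annotation begins, 55 bases before the RefSeq start, which is also the start in the count table. The second, chr3:80943696-80943722, ends at the base before the RefSeq start. In the first, capitals mark CAGAC and GGAATG, the latter being the complement of the TEAD letters CATTCC. In the second they mark the CArG box alone.
Pdgfc upstream: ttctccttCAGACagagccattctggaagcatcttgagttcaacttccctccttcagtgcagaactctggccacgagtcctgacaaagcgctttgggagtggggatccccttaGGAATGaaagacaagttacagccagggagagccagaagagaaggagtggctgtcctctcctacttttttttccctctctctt
Pdgfc CArG site: cccgcagactCCTTATTTGGggttagg
The CArG box, at chr3:80943706-80943715, began 17 bases before the RefSeq start and lies inside the first exon by GENCODE. Promoter windows from RefSeq, of 250 bases before and 50 after the start, were found for 4 of the 6 genes (Pdgfra, Pdgfa with 2 starts, Pdgfc and Pdgfd). They were searched on both strands for the CArG box (CC and GG around 6 bases that are all A or T), which 1.63% of all 32851 windows in the table hold, and for the TEAD letters CATTCC, which 14.7% hold. The SMAD letters CAGAC were found in 49.6% of all windows and the palindrome GTCTAGAC in 0.213%, and the 2 can overlap. The AP-1 letters TGANTCA were found in 7.81%, the SP/KLF letters GGGCGG in 35.7% and the TATA letters TATAAA in 13.6%. The Pdgfc window held 2 TEAD and 2 CAGAC matches beside the CArG box, the Pdgfd window 2 CAGAC matches and 1 TATAAA match, and the Pdgfa windows 1 and 2 GGGCGG matches. These are matches of letters, and binding of a factor was not measured.

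Pdgfa (ENSMUSG00000025856, chromosome 5 from 138961769 to 138983125, minus strand) encodes the A chain, the classical ligand of the α receptor. The col1 libraries had 58.63, 63.5, 56.3 and 53.14 CPM, those of col1-ACLP 55.08, 48.93, 50.03 and 53.54 CPM, and those with SB431542 54.28, 60.31, 56.37 and 57.09 CPM. The groups overlapped in every comparison. The log2 fold change was -0.16 on col1-ACLP (standard error 0.0671, 95% interval -0.296 to -0.0194, adjusted p = 0.115, edgeR) and -0.022 on col1-ACLP+SB (95% interval -0.16 to 0.115, adjusted p = 0.918). Without col1 replicate 2 the values were -0.11 and 0.026. The noncoding gene 6330403L08Rik lies across the 5′ end of Pdgfa on the opposite strand, with 14.4 ± 1.86, 18 ± 0.904 and 16.7 ± 3.16 CPM in the 3 groups. Whether the counting used strand is not given in the sources used here, so reads of the pair may not be separable and the values of Pdgfa are uncertain to that extent. On col1-ACLP the log2 fold change of 6330403L08Rik was 0.33 (adjusted p = 0.0751, edgeR), in the other direction from Pdgfa.

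Pdgfd (ENSMUSG00000032006, chromosome 9 from 6168584 to 6378850, plus strand) encodes the latent D chain, a ligand of the β receptor. The col1 libraries had 13.29, 11.23, 9.652 and 8.647 CPM, and those of col1-ACLP 8.92, 9.205, 9.018 and 6.52 CPM. With SB431542 the values were 8.743, 6.746, 8.566 and 10.62 CPM. The groups overlapped, and the col1 libraries were spread most widely. The log2 fold change was -0.34 on col1-ACLP (standard error 0.161, 95% interval -0.676 to -0.0134, adjusted p = 0.157, edgeR) and -0.30 on col1-ACLP+SB (95% interval -0.634 to 0.0258, adjusted p = 0.303, edgeR). Without col1 replicate 2 these were -0.32 and -0.28, and neither passed.

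On col1-ACLP+SB, 2 of the 6 genes were called against col1, Pdgfb higher and Pdgfra lower, against 2.28% of all tested genes (1.27% higher and 1.01% lower). With the adjusted p-value alone, 3 passed against 9.13%, and the libraries of 2 did not overlap against 13% of all tested genes. Leaving out col1 replicate 2 also gave 2 calls. This comparison and that of col1-ACLP with col1 share the same 4 col1 libraries, so their likeness is not independent.

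The direct comparison of col1-ACLP+SB with col1-ACLP asked how the genes differed when ALK5 was inhibited on the ACLP matrix. None of the 6 passed the test, where 1.48% of all tested genes did and 0.128% were called (0.085% higher and 0.0425% lower), and all 6 overlapped, where 8.17% of all tested genes did not. Pdgfra came nearest, with a log2 fold change of 0.16 (95% interval 0.0437 to 0.279), an unadjusted p of 0.00923 and an adjusted p of 0.185 (edgeR). It was the only member with an unadjusted p under 0.05, and limma-voom and DESeq2 called 0 members too. For Pdgfb the log2 fold change was -0.16 (95% interval -0.339 to 0.0242, adjusted p = 0.494) and for Pdgfc -0.32 (95% interval -0.925 to 0.292, adjusted p = 0.751, edgeR). For Pdgfc this interval spans from 0.527-fold to 1.22-fold. Among the markers, Tek was called lower on col1-ACLP+SB than on col1-ACLP (log2 fold change -0.86, adjusted p = 0.0116, edgeR), at 4.905 ± 0.925 against 8.873 ± 1.02 CPM, and Cspg4 (-0.26, adjusted p = 0.0378) and Col1a2 (-0.21, adjusted p = 0.00842) passed as lower. Their part in the values of the 6 genes was not tested. Of the remaining members, the values were -0.025 for Pdgfrb (95% interval -0.117 to 0.0679), 0.14 for Pdgfa (95% interval -0.0032 to 0.274) and 0.041 for Pdgfd (95% interval -0.293 to 0.374).

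**Figure D2:**
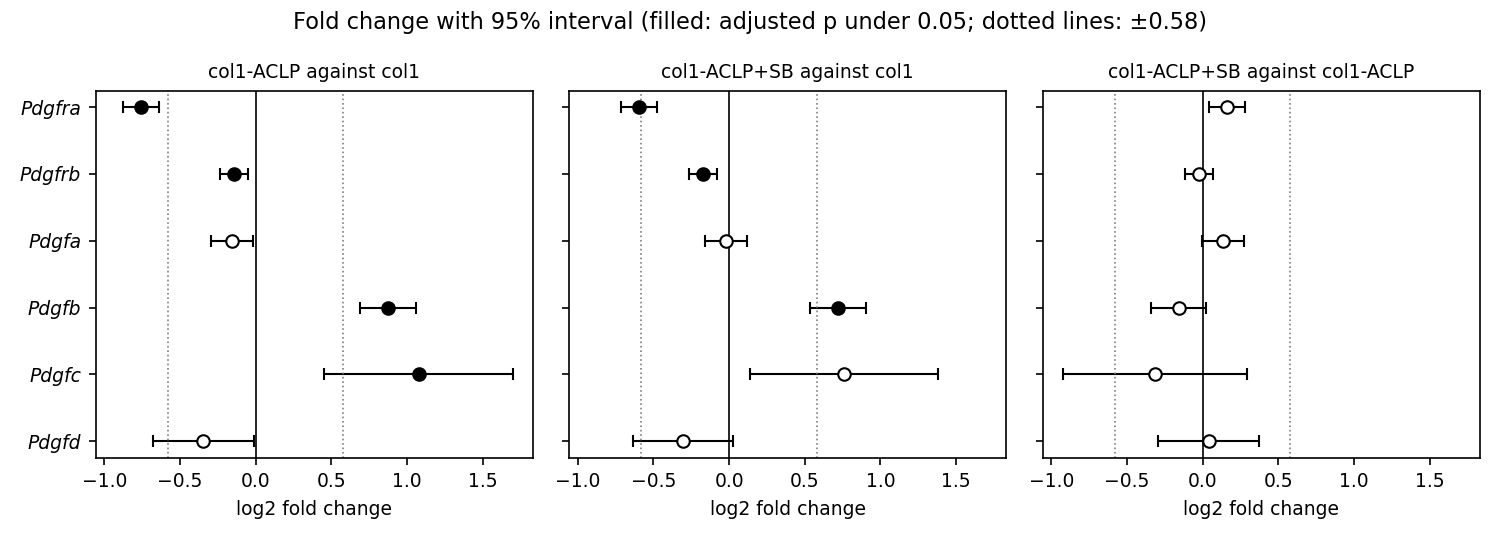
Log2 fold change (horizontal axes) of the 6 genes in the 3 comparisons, with 95% intervals as bars, filled points where the adjusted p-value was under 0.05 and dotted lines at 0.58 in either direction. Pdgfra at -0.76 and Pdgfb at 0.87 lay beyond the lines with ACLP, and no point is filled in the comparison of col1-ACLP+SB with col1-ACLP.

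Levels of different genes were compared per gene length, as FPKM (CPM per kilobase of the gene length in the table). The order was the same in all 3 groups, Pdgfrb, Pdgfra, Pdgfa, Pdgfb, Pdgfd and Pdgfc, and neighbours in it did not overlap within any group. On col1 the means were 88.18 ± 4.5 FPKM for Pdgfrb, 41.87 ± 2.38 for Pdgfra, 18.56 ± 1.4 for Pdgfa, 6.656 ± 0.806 for Pdgfb, 3.394 ± 0.641 for Pdgfd and 0.3773 ± 0.0954 for Pdgfc (SD, n = 4). On col1-ACLP they were 79.74 ± 1.63, 24.78 ± 1.45, 16.64 ± 0.928, 12.21 ± 1.37, 2.668 ± 0.403 and 0.8002 ± 0.183 FPKM in the same order of genes. The distance between the receptors was thus wider with ACLP, and that between Pdgfa and Pdgfb narrower. On col1-ACLP+SB, Pdgfrb had 78.38 ± 3.06, Pdgfra 27.71 ± 2.23, Pdgfa 18.28 ± 0.802 and Pdgfb 10.95 ± 0.807 FPKM.

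**Figure D3:**
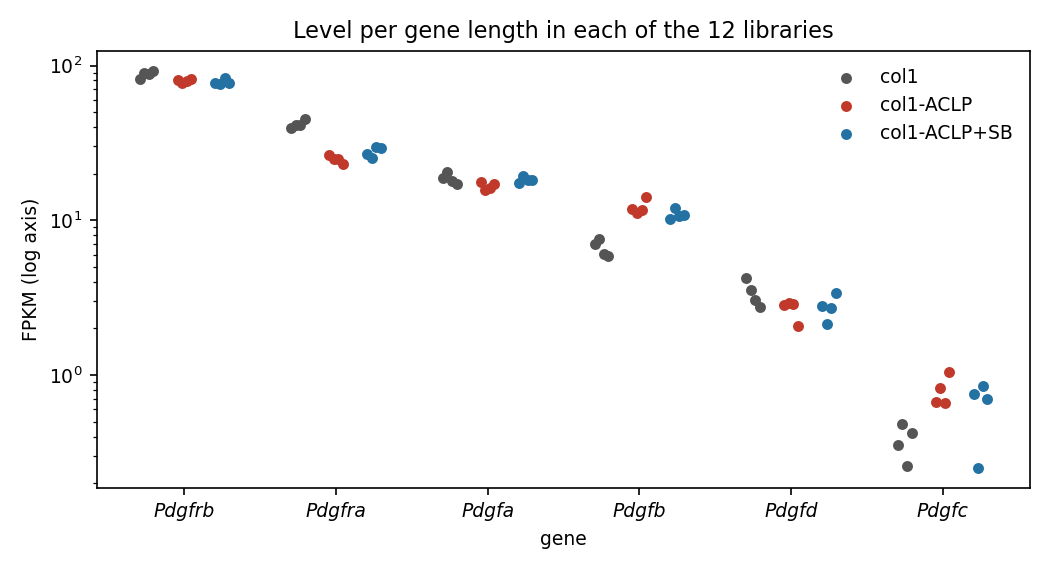
Level per gene length in FPKM (vertical log axis) of the 6 genes, ordered from high to low, in the 12 libraries (points, coloured by group). The order from Pdgfrb to Pdgfc held in each group, with Pdgfb moving from a mean of 6.656 FPKM on col1 to 12.21 FPKM on col1-ACLP, towards Pdgfa.

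The balance between receptors was described by the ratio of Pdgfra to Pdgfrb per length in each library. It was 0.475 ± 0.0139 in the col1 libraries (from 0.459 to 0.489), 0.311 ± 0.0209 in those of col1-ACLP (from 0.282 to 0.331) and 0.353 ± 0.0218 on col1-ACLP+SB (from 0.328 to 0.381). All libraries with ACLP lay below all col1 libraries, and the range with SB431542 overlapped that of col1-ACLP at its lower end. The summed receptor level was 130 ± 6.65 FPKM without ACLP, 105 ± 1.79 with ACLP and 106 ± 4.87 with ACLP and SB431542. The ligand sum was 29 ± 2.7, 32.3 ± 1.78 and 32.6 ± 1.18 FPKM, with overlapping libraries. Within the ligands, Pdgfb made up 22.9% ± 0.684 of the sum without ACLP, 37.7% ± 2.42 with ACLP and 33.5% ± 1.46 with ACLP and SB431542. The share of Pdgfa was 64.1% ± 1.81, 51.5% ± 1.56 and 56% ± 0.884. Since the shares add up to the whole, that of Pdgfa was lower where Pdgfb was higher, and the level of Pdgfa itself did not pass the test in either comparison with col1. Leaving out col1 replicate 2 gave a receptor ratio of 0.48 ± 0.0117 and shares of 22.7% ± 0.503 for Pdgfb and 64.3% ± 2.15 for Pdgfa on col1 (n = 3). These ratios carry no test, because they combine genes chosen with results known.

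**Figure D4:**
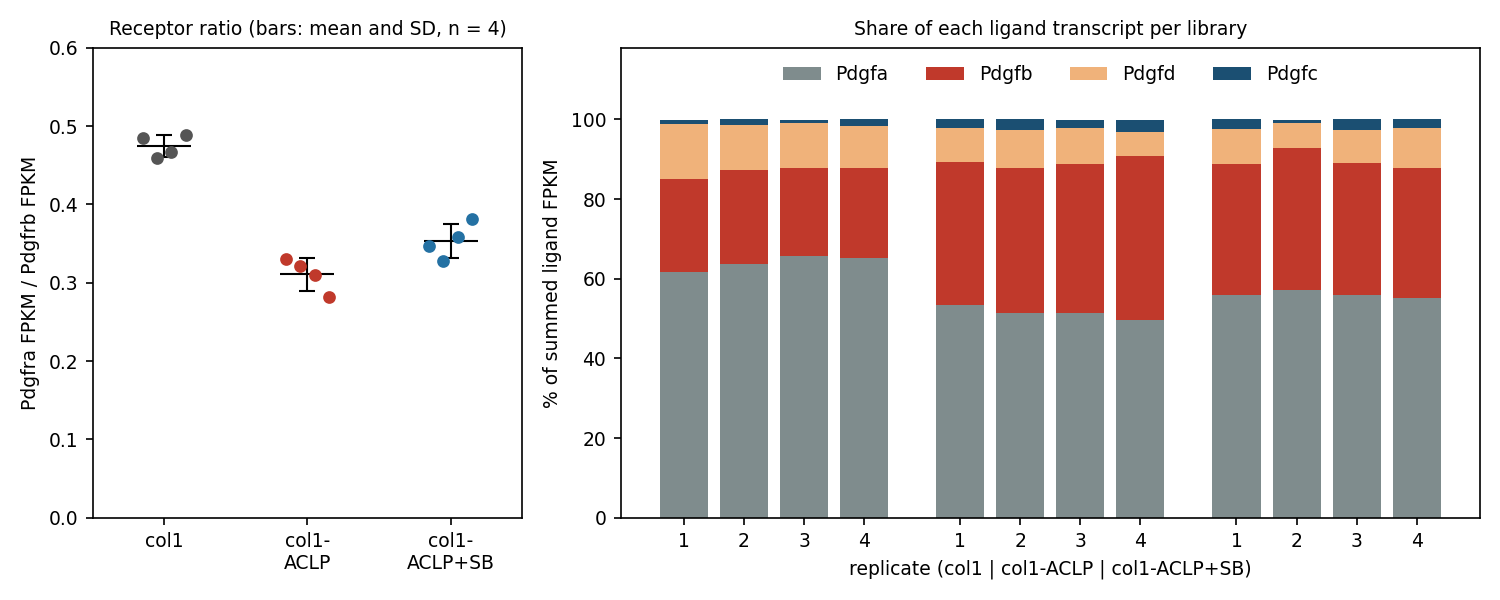
Left, ratio of Pdgfra to Pdgfrb FPKM in each library (points) with the mean and SD of each group (bars, n = 4). Right, share of each ligand in the summed ligand FPKM of each library, in percent, where Pdgfb takes from 22.2 to 23.7% on col1 and from 35.9 to 41.2% on col1-ACLP.

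Genes around the receptors were taken from 6 lists of 89 genes, of which 81 were tested. The lists were chosen with earlier results of these data known, so their shares are a description and not a test. On col1-ACLP, 16 passed as higher and 22 as lower than on col1, against 9.52% and 8.41% of all tested genes, and 2 were called higher and 7 lower, against 2.61% and 2.36%, so the 2 called higher were near the share of all genes. On col1-ACLP+SB, 6 were higher and 15 lower than on col1, against 4.6% and 4.54%, and 1 was called higher and 5 lower, against 1.27% and 1.01%, so the 1 called higher was likewise near that share. Between col1-ACLP+SB and col1-ACLP, 2 were higher and 1 lower, against 0.571% and 0.905%, and none was called. The median log2 fold changes were 0.014, -0.046 and -0.037. Without col1 replicate 2, 9, 5 and 0 pathway genes were called. Of the 38 that passed on col1-ACLP, 33 passed in the same direction without that library, and of the 21 on col1-ACLP+SB, 17 did.

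Of the 9 ligand maturation genes, 6 were tested, and on col1-ACLP 2 passed as lower and 4 did not pass (33.3% passed, against 17.9% of all tested genes, median log2 fold change -0.30). Both were activators of the latent ligands. Plat, tissue plasminogen activator, which cleaves PDGF-C, fell from 8.765 ± 1.44 to 4.996 ± 0.444 CPM (log2 fold change -0.81, standard error 0.174, adjusted p = 0.00131, edgeR). Plau, urokinase, which cleaves PDGF-D, fell from 17.08 ± 3.02 to 10.58 ± 2.25 CPM (log2 fold change -0.69, adjusted p = 0.00138, edgeR), with libraries that overlapped. On col1-ACLP+SB both were lower than on col1 as well, at log2 fold changes of -0.87 and -0.66 (adjusted p = 0.00118 and 0.00359, edgeR). The share of the list that passed there was 33.3%, against 9.13% of all tested genes. The urokinase receptor Plaur had 5.221 ± 1.07 and 3.403 ± 0.833 CPM and did not pass (adjusted p = 0.061). Furin, which processes the A and B chains, had a log2 fold change of 0.10 and did not pass.

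All 6 co-receptors and ligand-binding genes were tested, and on col1-ACLP 2 passed as higher, 3 as lower and 1 did not (83.3% passed, against 17.9% of all tested genes, median log2 fold change -0.083). S1pr1, a sphingosine 1-phosphate receptor that works with PDGFRβ, fell from 42.62 ± 5.36 to 25.18 ± 1.46 CPM (log2 fold change -0.76, adjusted p = 2.88e-06, edgeR). Nrp1, a neuropilin co-receptor, fell from 271.1 ± 24.3 to 186.4 ± 8.14 CPM (log2 fold change -0.54, adjusted p = 1.89e-06), and the related Nrp2 showed -0.23 (adjusted p = 0.00221, edgeR). Itgb3, the integrin β3 subunit, rose from 52.89 ± 3.34 to 76.78 ± 5.28 CPM (log2 fold change 0.54, adjusted p = 1.06e-06, edgeR). Sparc, a matricellular protein that binds the B chain, also rose, by 0.43 on the log2 scale (adjusted p = 1.77e-10, edgeR). The same 5 genes passed in the same directions on col1-ACLP+SB against col1 (83.3%, against 9.13% of all tested genes), a comparison that shares the col1 libraries. Their log2 fold changes were -0.79 for S1pr1, -0.56 for Nrp1, -0.29 for Nrp2, 0.36 for Itgb3 and 0.31 for Sparc.

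Of the 9 related receptors and ligands, 5 were tested, and 2 passed as lower on col1-ACLP (40% passed, against 17.9% of all tested genes, median log2 fold change -0.23). These were ligands of other receptors of the same class. Kitl, the ligand of Kit, was at 144.9 ± 7.6 CPM without ACLP, 105.8 ± 8.61 with ACLP and 109.5 ± 12.5 with ACLP and SB431542 (log2 fold change on col1-ACLP -0.45, adjusted p = 3e-05, edgeR). Csf1, the ligand of Csf1r, showed -0.23 (adjusted p = 0.0013, edgeR). Flt3l, the ligand of Flt3, had 7.213 ± 1.02 and 6.064 ± 1.45 CPM and did not pass (adjusted p = 0.394). Csf1r itself was near 0, with at most 28 counts in a library, and did not pass. The receptors for Kitl and Flt3l were also near 0 or untested, with no count of Flt3 on col1.

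Among the 36 tested signal transducers, 10 passed as higher and 7 as lower on col1-ACLP (median log2 fold change 0.027). Of the 36, 47.2% passed, against 17.9% of all tested genes, and none was called, against 4.97% of all tested genes. All of them except Vav3 were above 10 CPM on average, and the part of expression level in this share was not tested. Members of the Ras and MEK cascade were among those that rose, with log2 fold changes of 0.45 for Map2k1 (adjusted p = 6.6e-07), 0.42 for Hras (adjusted p = 0.00185) and 0.24 for Nras (adjusted p = 0.00224, edgeR), while Mapk3, which encodes ERK1, showed -0.16 (adjusted p = 0.0172). Of the 4 tested genes of phosphoinositide 3-kinase subunits, 1 passed as higher and 2 as lower. Pik3cb, a catalytic subunit, rose from 21.52 ± 2.6 to 31.36 ± 3.94 CPM (log2 fold change 0.54, adjusted p = 0.000212), and Pik3r2, a regulatory subunit that binds the activated receptor, fell from 406.7 ± 11.4 to 289.7 ± 8.62 CPM (log2 fold change -0.49, adjusted p = 1.82e-08, edgeR). The regulatory subunit Pik3r1 was lower, at -0.27 (adjusted p = 0.000246), and the catalytic subunit Pik3ca had -0.046 and did not pass (adjusted p = 0.664, edgeR). On col1-ACLP+SB, 2 passed as higher and 3 as lower than on col1, against 4.6% and 4.54% of all tested genes, so the share that passed, 13.9%, was not far above the 9.13% of all tested genes. Between col1-ACLP+SB and col1-ACLP, Pik3cb was lower (log2 fold change -0.39, adjusted p = 0.0449) and Pik3r2 higher (0.20, adjusted p = 0.0317, edgeR). No other transducer passed there, a share of 5.56% against 1.48% of all tested genes.

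Of 13 negative regulators, all tested, 1 passed on col1-ACLP and 12 did not (median log2 fold change 0.024). The share that passed, 7.69%, was below the 17.9% of all tested genes. The exception was Sla, an adaptor that dampens receptor tyrosine kinases, with at most 4 counts in a col1 library and from 4 to 24 counts in the others (log2 fold change 2.96, standard error 0.88, adjusted p = 0.0189, edgeR), a change that rests on very few reads. Against col1, the change of Sla on col1-ACLP+SB (2.93, adjusted p = 0.0341) did not pass with col1 replicate 2 left out (adjusted p = 0.0531, edgeR). Socs3, a feedback inhibitor of cytokine signalling, had 53.71 ± 8.17 and 44.82 ± 6.54 CPM and did not pass (adjusted p = 0.0773), nor did Socs1 (adjusted p = 0.414, edgeR).

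On col1-ACLP, the co-receptors and ligand-binding genes had the largest share that passed, 83.3%. Among the lists of over 10 genes, the largest share was that of early genes that PDGF induces in fibroblasts. Of 15 genes, all tested, 3 passed as higher and 8 as lower on col1-ACLP, a share of 73.3% against 17.9% of all tested genes (median log2 fold change -0.34). On col1-ACLP+SB 1 was higher and 5 lower than on col1, a share of 40% against 9.13% of all tested genes (median -0.22). Of the 11 that passed on col1-ACLP, 9 passed with col1 replicate 2 left out, Junb and Ier2 being the exceptions, and of the 6 on col1-ACLP+SB, 4 did, Egr1 (adjusted p = 0.128) and Ier3 (adjusted p = 0.126, edgeR) being the exceptions. The chemokines fell most. Ccl2 was at 95.41 ± 4.63 CPM without ACLP, 42.02 ± 5.22 with ACLP and 52.98 ± 10.6 with ACLP and SB431542 (log2 fold change on col1-ACLP -1.18, standard error 0.102, adjusted p = 2.28e-09, edgeR). Cxcl1 had 270.7 ± 23, 136.9 ± 14.1 and 166 ± 9.05 CPM (log2 fold change -0.98, adjusted p = 3.16e-11), and Ccl7 had 54.68 ± 5.95, 29.91 ± 4.77 and 36.71 ± 4.52 CPM (-0.87, adjusted p = 6.3e-07, edgeR). Egr2, an immediate early transcription factor, fell from 43.47 ± 7.3 to 26.23 ± 5.02 CPM (-0.73, adjusted p = 0.000857, edgeR). Odc1, the first enzyme of polyamine synthesis, went the other way, from 70.42 ± 7.37 to 111.6 ± 5.27 CPM (0.66, adjusted p = 3.09e-08, edgeR). For Has2, a hyaluronan synthase, the value was 0.55 (adjusted p = 0.000661). Cxcl1 was the only gene of this list that passed between col1-ACLP+SB and col1-ACLP, at a log2 fold change of 0.28 (adjusted p = 0.0333, edgeR). This was 6.67% of the list, against 1.48% of all tested genes. Activity of the receptors was not measured in these libraries.

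**Figure D5:**
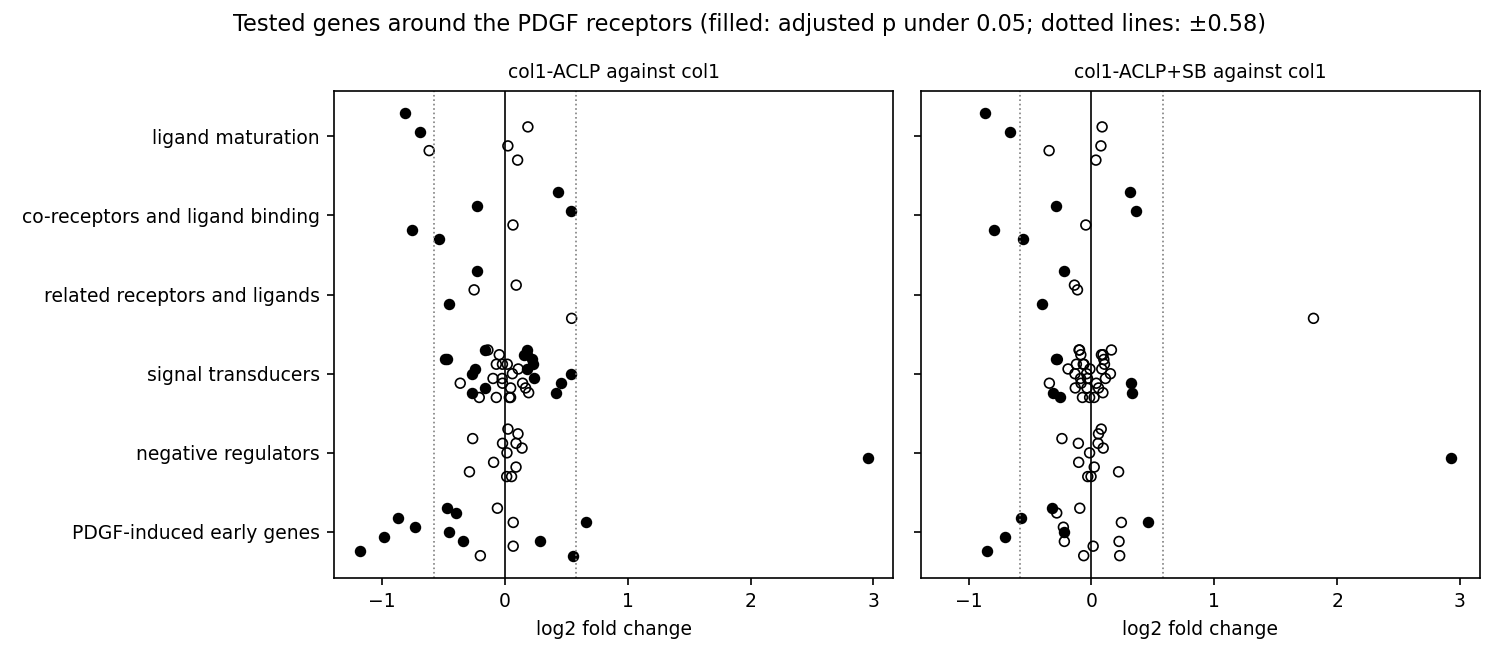
Log2 fold change (horizontal axes) of the 81 tested genes of the 6 lists on col1-ACLP (left) and col1-ACLP+SB (right) against col1, filled where the adjusted p-value was under 0.05, with dotted lines at 0.58 in either direction and points spread vertically within a list for legibility. Most filled points of the PDGF-induced early genes lie left of 0 on col1-ACLP, down to -1.18 for Ccl2, and the point at 2.96 is the sparse gene Sla.

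The genes whose pattern over the 12 libraries was most like that of each member were found by Pearson's r of log2 CPM among 9158 or 9159 tested genes with a mean of at least 10 CPM. The value is a description over 12 libraries that share their groups, with no test. Pdgfra was most like B4galt5 (r = 0.996, and 0.932 once group means were removed), a galactosyltransferase, followed by Tmem64, Dtx4, Glrx and Matn2 (r from 0.988 to 0.992). The log2 fold changes of all 5 were negative in both comparisons with col1, and Dtx4 showed the largest log2 fold change of these, -1.32 with ACLP and -0.99 with ACLP and SB431542. Pdgfb was most like Aldh18a1 (r = 0.983), a proline synthesis enzyme, Pck2 (r = 0.980), the mitochondrial phosphoenolpyruvate carboxykinase, Fzd8, Eno1b and Col2a1, all with positive log2 fold changes in both comparisons. For the remaining members the closest genes were looser over the 12 libraries, with r = 0.931 for Pdgfrb and Antxr1, 0.927 for Pdgfa and Arl6ip4, 0.913 for Pdgfc and Wac and 0.917 for Pdgfd and Rmdn3. Once group means were removed, the values for these pairs were 0.781, 0.891, 0.849 and 0.933, and 0.831 for Pdgfb and Aldh18a1, so the order was not the same.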

How the data were processed

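Poly(A) RNA libraries of 10T1/2 cells were sequenced as paired-end reads, which the study's methods map with HISAT2 to GRCm39. The sample labels name mm10 as the build, but the coordinates in the table match GRCm39. For each of the 12 libraries, the authors deposited the raw count of reads on every gene, not normalized. The counting tool, its strand setting and its handling of reads with several matches are not given in the sources used here. Groups follow the treatment label of each sample. The study describes the 4 libraries of a group as biological replicates of the 1 line, and the labels do not say how they were kept apart, so p-values measure the spread between these samples.

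Counts were filtered with filterByExpr (16465 of 56748 genes kept), scaled by TMM and tested for all 12 libraries together with the quasi-likelihood test of edgeR 4.0.16 in R 4.3.3, with Benjamini-Hochberg adjustment over all genes tested. Thresholds were 0.05 for the adjusted p-value and 0.58 for the size of the log2 fold change. Library totals ran from 29246154 to 52201922 counts, and the common dispersion had a square root of 0.153. FPKM used the gene length in the table. Log2 CPM used a prior count of 2. Intervals are at 95%. The procedure was tested on simulated counts. The members and the lists were chosen with earlier results of these data known. Named genes were all members, the called genes of each list, lists with fewer than 3 of these being filled with the genes of largest change, and the 5 genes most alike in pattern. Furin, Nrp2, Sparc, Csf1, Map2k1, Hras, Nras, Mapk3, Has2, Junb, Ier2, Egr1, Ier3, Pik3r1 and Pik3ca were named in addition, after their values had been seen. A gene that this rule names among the signal transducers is not reported here. Alternatives changed the scaling, filter, samples, replicate block, threshold and tool (DESeq2 1.42.0, limma-voom of limma 3.58.1), and left out each library in turn. Deviations from the group means were not shared by libraries of the same number (correlations of -0.0372 to 0.036), and the numbers were not taken as pairs. Promoter sequences are from RefSeq in a table of the build GRCm38.p6, placed on GRCm39 by exact match of the sequence.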

Additional observations from a re-analysis of the deposited data

Results flagged for a closer look

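In 2 of the 18 sets of 4 libraries examined (6 genes in 3 groups), 1 library lay apart from the other 3 by Dixon's test, where the gap to the nearest library divided by the range was above 0.829. For Pdgfrb on col1-ACLP+SB, replicate 3 had 454 CPM (quotient 0.849), above the other 3 libraries at 418.5 to 423.9 CPM. This is the library that lay inside the col1 range, and it was the most deeply sequenced of the 12. For Pdgfd on col1-ACLP, replicate 4 had 6.52 CPM (quotient 0.894), below the other 3 libraries at 8.92 to 9.205 CPM, and it was the library with the fewest counts in total. Chance alone puts about 1 in 20 such sets past this limit. The part of depth in either value was not tested.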

How the results depend on the processing

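The depth leaves Pdgfc the least certain of the 6 genes, and Sla and Csf1r, with still fewer counts, less certain than Pdgfc, and the use of 1 cell line and of matrices without an SB431542 control limits every comparison with the inhibitor. Over all alternatives, 506 values were kept, 15 no longer passed, 2 newly passed, 5 turned direction and 9 counts moved by over 1.5 times. A kept fold change had the same direction and side of the adjusted p-value threshold. Kept counts stayed within 1.5 times, kept level orders were unchanged, and kept receptor ratios moved by less than the SD of their group. The call of Pdgfra (log2 fold change from -0.806 to -0.715) and Pdgfb (0.796 to 0.945) on col1-ACLP held in every alternative. This tally does not use the limit of 0.58 for single genes, so it counts as kept the 3 values of Pdgfra on col1-ACLP+SB that fell inside it. Where a value changed, the cause was not tested unless the construction shows it.

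On col1-ACLP against col1, Pdgfrb did not pass without a filter on low counts (-0.141, adjusted p = 0.0591) or when tested against 0.58 by glmTreat (-0.145), and ranged from -0.178 to -0.119 with a library left out (adjusted p up to 0.102). Pdgfa passed with library size alone (-0.209, adjusted p = 0.028, range over alternatives 0.028 to 1). Pdgfc did not pass under glmTreat (1.08, adjusted p = 0.56) and ranged from 0.923 to 1.21 with a library left out. On col1-ACLP+SB against col1, glmTreat gave values that did not pass for Pdgfra (-0.595), Pdgfrb (-0.17) and Pdgfb (0.717), so 0 members were called, against 1 to 2 with a library left out. There Pdgfrb ranged from -0.203 to -0.144, Pdgfc from 0.593 to 1.02 and Pdgfa from -0.0609 to 0.0256, turning direction without col1 replicate 2 (0.0256) or col1-ACLP+SB replicate 1 (0.000897). On col1-ACLP+SB against col1-ACLP, Pdgfrb turned to 0.00203 with library size alone, and Pdgfd ranged from -0.0691 to 0.14, turning without col1-ACLP replicate 4 (-0.0628) or col1-ACLP+SB replicate 4 (-0.0691). Library size alone moved the median of all genes by -0.0501, -0.0239 and 0.0263. In the 3 comparisons, the pathway genes called were 38, 21 and 3 with the adjusted p-value alone and 2 and 0 under glmTreat in the comparisons with col1, and 0 to 1 with a library left out between col1-ACLP+SB and col1-ACLP.

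With the replicate number as a replicate block, no call changed: 3, 2 and 0 members were called, with log2 fold changes on col1-ACLP of -0.755 for Pdgfra, -0.144 for Pdgfrb, -0.156 for Pdgfa, 0.877 for Pdgfb, 1.06 for Pdgfc and -0.339 for Pdgfd. Libraries of the same number share only a number.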
